A study of Mus musculus with 36 samples.

Results

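The comparison described here set plasma of high absorbance against plasma of low absorbance among the first processing batch of a mouse study of circulating miRNA. Absorbance at 414 nm, the wavelength band of haemoglobin, was given in the labels for each plasma. The high group comprised the batch 1 arrays with an absorbance of 0.4 or more, and the low group those below 0.3. These were 10 and 7 arrays, together 17 of the 23 arrays of batch 1 and of the 36 arrays of the series. The other 6 arrays of batch 1 lay between the thresholds and were used only where stated. Each array held Cy3-labelled total RNA from the plasma of 1 female BALB/c mouse, hybridised to an Agilent array with probes for 1247 mouse miRNAs.

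Mice were either NeuT+, carrying an activated rat Erbb2 oncogene under the mouse mammary tumour virus promoter, which drives expression mainly in mammary epithelium, or NeuT-, their non-transgenic siblings. The high group held 1 NeuT+ mouse aged 6 weeks, 4 aged 12 weeks and 2 aged 24 weeks, and 2 NeuT- mice aged 6 weeks and 1 aged 12 weeks. The low group held 2 NeuT+ mice aged 6 weeks and 1 aged 12 weeks, and 1 NeuT- mouse aged 6 weeks, 2 aged 12 weeks and 1 aged 24 weeks. Genotypes and ages were pooled, so the groups differed in both. Absorbance ran from 0.413 to 0.815 in the high group, with a median of 0.464, and from 0.21 to 0.285 in the low group, with a median of 0.238. The nearest values outside the groups were 0.396 and 0.34. All 17 plasmas carried the label of haemolysis, the low group included, so clear plasma was not part of the comparison. The question the labels imply is whether the degree of haemolysis moved the miRNA profile.

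Haemolysis is the rupture of red cells, which releases haemoglobin and the miRNAs that red cells carry into plasma. Among these, miR-451a and miR-144-3p are processed from 1 precursor locus that is strongly active in erythroid cells, and miR-451a matures by Argonaute 2 cleavage without Dicer. The ratio of miR-451a to miR-23a-3p, a miRNA thought to be little affected by red cell rupture, is in common use as an index of haemolysis. Other plasma miRNAs come largely from platelets, leukocytes, endothelium and liver.

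The sequences of the miRNAs on which the results turn are shown 5′ to 3′ with the seed, bases 2 to 8, in capitals. They are RefSeq's mature sequences (GRCm38.p6), and 17 of the 21 miRNAs named below had an entry. The red cell miRNAs come first, to show which of them share a seed or a locus.
miR-451a: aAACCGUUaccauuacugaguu
miR-144-3p: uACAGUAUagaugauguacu
miR-16-5p: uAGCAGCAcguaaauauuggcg
miR-15a-5p: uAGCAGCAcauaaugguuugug
miR-15b-5p: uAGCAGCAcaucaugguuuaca
miR-92a-3p: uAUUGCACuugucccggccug
miR-25-3p: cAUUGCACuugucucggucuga
The miRNAs with the smallest p among those lower or higher in the high group follow.
miR-547-5p: cACUUGAGgauguaccaccca
miR-192-5p: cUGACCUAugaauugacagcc
miR-126-3p: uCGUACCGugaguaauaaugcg
miR-23a-3p: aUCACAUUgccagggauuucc
miR-494-3p: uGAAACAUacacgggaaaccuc
miR-6385: gCAAGGAUgacagagaggaag

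MiR-16-5p, miR-15a-5p and miR-15b-5p shared the seed AGCAGCA, and miR-92a-3p and miR-25-3p shared AUUGCAC. MiR-451a lies at chr11:78073186-78073207 and miR-144-3p at chr11:78073047-78073066, both on the plus strand. MiR-15a-5p lies at chr14:61632075-61632096 on the minus strand beside 1 copy of miR-16-5p, at chr14:61631936-61631957. MiR-15b-5p lies at chr3:69009775-69009796 on the plus strand beside the other copy, at chr3:69009918-69009939. MiR-126-3p, an earlier name, was matched to the entry miR-126a-3p, and its probes are complementary to that sequence.

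On average the arrays of the high group carried more miRNA signal, which did not pass after adjustment over the 17 arrays. Summed over the miRNAs detected on each array, the signal ran from 88866 to 677887 intensity units in the high group, with a median of 314797, and from 77429 to 251987 in the low group, with a median of 147160. The groups overlapped, and 6 of the 10 high arrays lay above every low array. On the log2 scale the mean was 18.14 ± 0.90 (SD, n = 10) in the high and 17.14 ± 0.65 (SD, n = 7) in the low group, a difference of 1.00 or 2.00-fold (two-sided exact permutation test over 19448 splits, p = 0.0258). Adjusted over the 4 values tested per array, p was 0.0645, which did not pass 0.05. Without high replicate 10, a high array described below that stood apart from the rest, the difference was 1.19 and passed (exact permutation p = 0.00446, adjusted over the 4 values 0.00892). High replicate 10 had the lowest summed signal of the high group, so leaving it out could only raise the difference. The smaller p is therefore no separate support. The scale factor, the 75th percentile of the miRNAs detected on all 17 arrays by which each array was divided, differed by 0.90 on the log2 scale or 1.86-fold (exact permutation p = 0.0322, adjusted 0.0645). Without high replicate 10, whose scale factor was also the lowest of the high group, it differed by 1.10 (exact permutation p = 0.00306, adjusted 0.00892).

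The number of detected miRNAs ran from 134 to 522 in the high group, with a median of 250.0, and from 169 to 274 in the low group, with a median of 213. High arrays detected 277.8 ± 114 (SD, n = 10) on average and low arrays 211 ± 38.0 (SD, n = 7), which did not differ beyond the spread between arrays (exact permutation p = 0.176, adjusted 0.176). High replicate 10 gave the 134, and without it the difference was 82.3 miRNAs (exact permutation p = 0.0646, adjusted 0.0646). The 2 arrays with the most detected miRNAs, 522 and 426, were both NeuT+ plasma of the high group.

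Slide and scan day differed between arrays. The 17 arrays lay on 7 slides, of which 4 held both groups. On those 4 slides the high group had the larger mean log2 scale factor each time, by 0.90, 0.63, 1.01 and 1.18. Each of these slides held 1 low array, and the slide with 0.90 also held 1 high array. On the slide with 1.18, 1 high array, at 532, lay below the low array at 715, and the other high array was at 4955. Within genotype, the difference in log2 summed signal was 1.41 among NeuT+ mice (7 against 3, exact permutation p = 0.0917) and 0.68 among NeuT- mice (3 against 4, exact permutation p = 0.114). At 6 weeks it was 1.09 (3 against 3, exact permutation p = 0.1, the smallest that design allows), and at 12 weeks 0.81 (5 against 3, exact permutation p = 0.0893). The difference was positive in all 4 of these subsets, and none of them passed 0.05 alone. The 3 arrays scanned on the second scan day were all of the low group. On the other scan days the difference was 0.84 (3 against 1, with no test possible) and 0.91 (7 against 3, exact permutation p = 0.225).

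**Figure D1:**
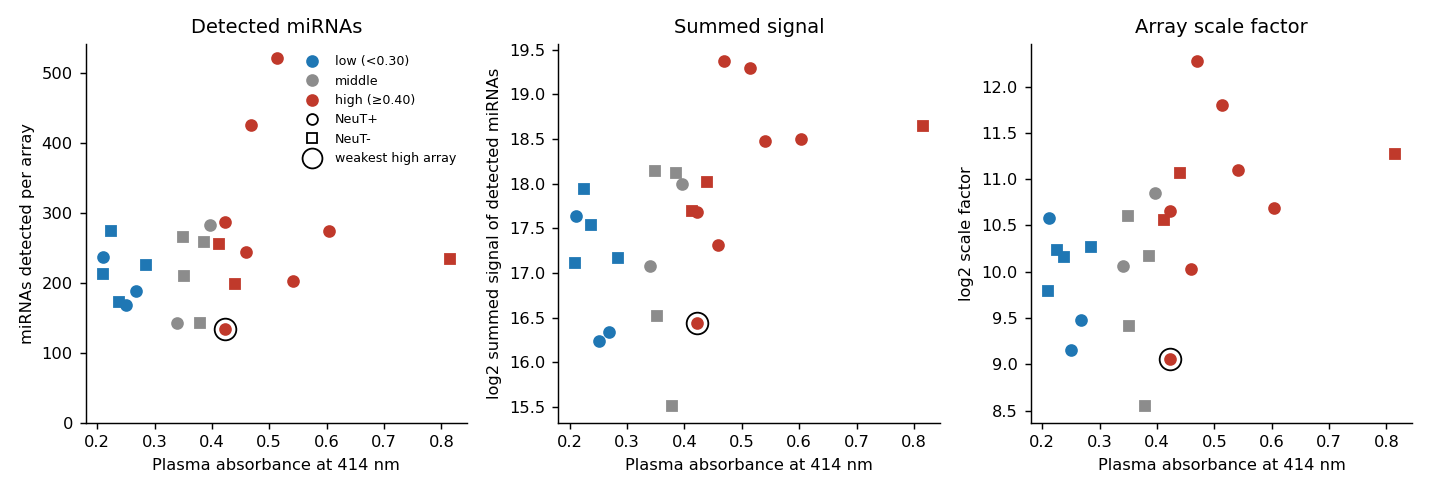
Detected miRNAs, log2 summed signal of detected miRNAs and log2 scale factor of each of the 23 batch 1 arrays (y axes) against plasma absorbance at 414 nm (x axis), 1 point per mouse, coloured by absorbance group and shaped by genotype. Most high arrays lie above the low arrays in the middle and right panels, and the circled high array, at 134 detected miRNAs, lies among the lowest.

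Over all 23 arrays of batch 1, the 6 of middle absorbance included, log2 summed signal went with log2 absorbance at Pearson's r = 0.49 (permutation p = 0.0176, adjusted over 6 relations 0.0528) and Spearman's rho = 0.61 (permutation p = 0.00226, adjusted 0.0136). Without the 2 arrays farthest from the median absorbance r was 0.44, and without high replicate 10 it was 0.53. Within NeuT+ mice r was 0.64 (n = 12) and within NeuT- mice 0.32 (n = 11). The number of detected miRNAs gave r = 0.31 (permutation p = 0.152, adjusted 0.304) and rho = 0.32 (permutation p = 0.133, adjusted 0.266). It gave r = 0.37 without the 2 farthest arrays and 0.35 without high replicate 10. The ordering by rank of the summed signal was the relation that passed after adjustment.

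A high array stood apart before any comparison. High replicate 10, the plasma of a NeuT+ mouse aged 24 weeks with an absorbance of 0.422, had the fewest detected miRNAs of the 17 arrays. Its median correlation with the other arrays was 0.72, whereas that of the other arrays ran from 0.90 to 0.96. Of its values for tested miRNAs, 26.0% lay at the lower limit set for the log2 scale. It is called the weakest high array below.

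After scaling, the red cell miRNAs did not differ between the groups beyond the spread between arrays. The log2 scaled signal is relative to the array's own 75th percentile, so it measures composition and not amount. MiR-451a ran from 0.15 to 6.22 in the high group, with a median of 4.58, and from 2.77 to 5.79 in the low group, with a median of 4.15. The weakest high array gave the 0.15. The other high arrays ran from 3.69 to 6.22, which still overlapped with the low group. Over the 17 arrays the difference was -0.12 ± 0.61 (SE), with a 95% confidence interval from -1.40 to 1.16 (limma with Benjamini-Hochberg adjustment, adjusted p = 0.986). Without the weakest high array it was 0.44 ± 0.40 (SE, adjusted p = 0.965). The interval, from -0.39 to 1.27, still included 0.

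MiR-144-3p, the partner of miR-451a at its locus, ran from -0.64 to 3.13 in the high group (median 1.54) and from 0.84 to 2.31 in the low group (median 1.15). Its difference was 0.12 ± 0.38 (SE), and 0.46 ± 0.28 (SE) without the weakest high array. MiR-16-5p, abundant in red cells but also in many other cells, ran from -2.53 to 2.15 in the high group (median 1.11) and from -0.05 to 1.88 in the low group (median 0.57). Its difference was -0.06 ± 0.47 (SE), and 0.40 ± 0.27 (SE) without the weakest high array. For both, every value other than those of the weakest high array lay between -0.05 and 3.13.

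The other miR-15 family members on the array gave -0.12 ± 0.31 (SE) for miR-15a-5p and -0.19 ± 0.50 (SE) for miR-15b-5p. MiR-3107-5p, under which name the array carries the erythroid miRNA miR-486b-5p, ran from -3.19 to -1.48 in the high and from -2.56 to -1.61 in the low group, with a difference of -0.12 ± 0.23 (SE). MiR-92a-3p and miR-25-3p, which share their seed and are found in red cells and elsewhere, differed by -0.08 ± 0.29 (SE) and -0.10 ± 0.33 (SE). MiR-92a-3p was detected on 8 of 10 high and 4 of 7 low arrays, near its limit of detection. Leaving out the weakest high array, miR-15a-5p gave 0.14, miR-15b-5p 0.29, miR-3107-5p 0.094, miR-92a-3p 0.069 and miR-25-3p 0.18. None of these miRNAs passed the test, all at an adjusted p of 0.986 over the 17 arrays.

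Of the 17 names on the red cell and haemolysis list, 14 were on the array, 9 were detected on at least 1 of the 17 arrays, and 8 passed the filter on detection. The median difference of these 8 was -0.11, with 7 of 8 below 0, beside a median of -0.06 and 61.5% below 0 over all 208 miRNAs tested. Without the weakest high array 9 members were tested, the median was 0.18 and 0 of 9 were below 0, beside a median of 0.07 and 32.7% below 0 over 217 miRNAs. In neither case did a member pass. The list's median was also above 0 without the sixth low array (0.059, beside 0.0057 over all tested miRNAs) and under array weights (0.16, beside -0.0049). The same held with NeuT- arrays (0.13, beside -0.037), arrays of 6 weeks (0.32, beside 0.037) or arrays of 12 weeks (0.12, beside 0.10) alone. These subsets do not hold the weakest high array. Of the 97 miRNAs that set the scale, 5 were on the list, and leaving the list out of the scaling gave a median of -0.11, while quantile normalization gave 0.0052. MiR-144-5p was detected on 7 high and 2 low arrays and was not tested over the 17 arrays. It was the ninth member tested without the weakest high array, at 0.16 (limma, adjusted p = 0.965), and entered only through the high group. MiR-363-3p, miR-185-5p, miR-182-5p, miR-183-5p and miR-96-5p were detected on 0 arrays of either group.

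**Figure D2:**
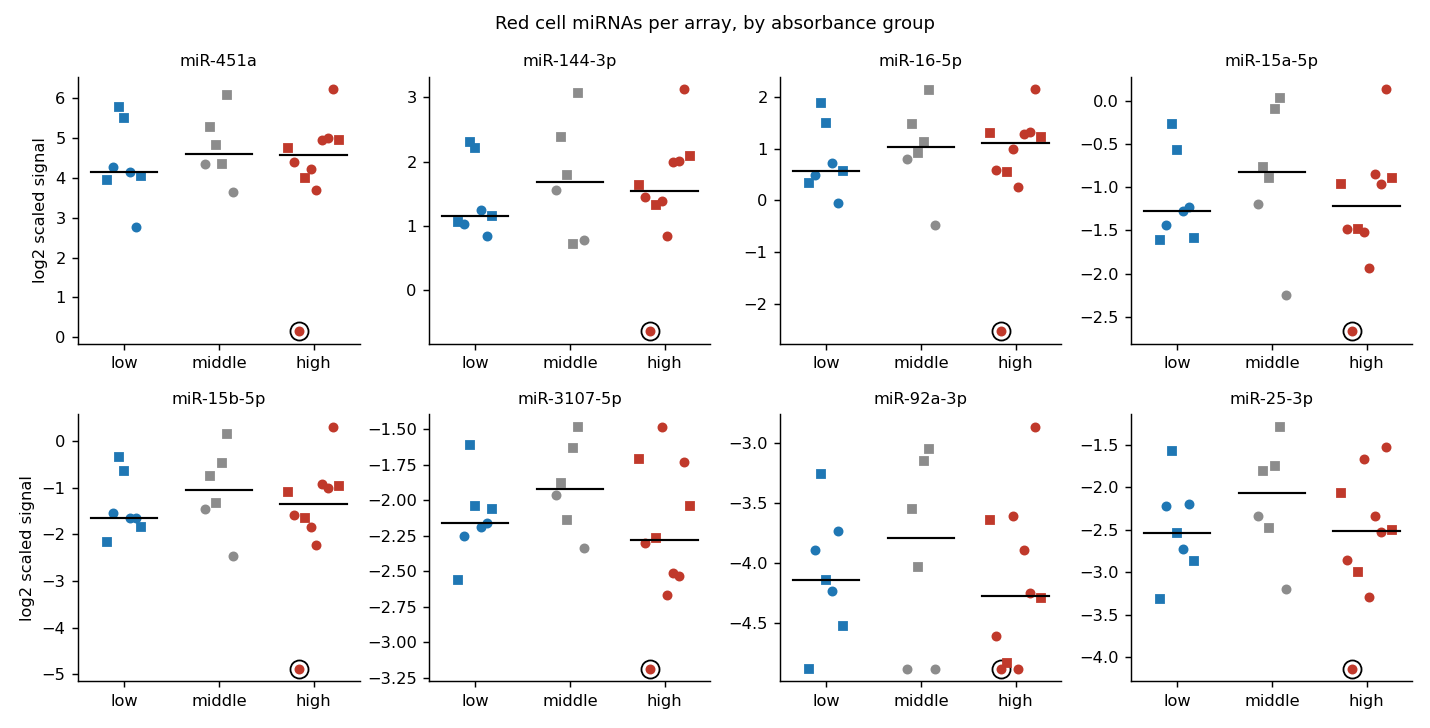
Log2 scaled signal (y axes) of the 8 tested red cell miRNAs on each array of the low, middle and high absorbance groups (x axes), 1 point per mouse, round for NeuT+ and square for NeuT-, with a line at the group median. The 3 groups overlap in every panel, and the circled weakest high array is the lowest point of the high group for miR-451a, at 0.15, and for miR-16-5p, at -2.53.

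Without any scaling between arrays the same miRNAs were higher in the high group, as nearly all miRNAs were. MiR-451a then differed by 0.78, miR-16-5p by 0.83 and miR-25-3p by 0.84 on the log2 scale. The median over all 208 tested miRNAs shifted to 0.83, and 1.44% of them lay below 0. Relative to that shift the red cell list, with an unscaled median of 0.81, did not stand out. No miRNA passed on the unscaled values either, with a smallest adjusted p of 0.104 and 82 miRNAs at an unadjusted p under 0.05, all of them higher.

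The red cell miRNAs varied together between mice. Over the 17 arrays miR-451a went with miR-16-5p at Pearson's r = 0.99, with miR-15b-5p and miR-144-3p at r = 0.96 each and with miR-15a-5p at r = 0.88. The Spearman's rho were 0.96, 0.93, 0.95 and 0.88. The permutation p for each was 1e-05, the smallest that 100000 permutations can give (adjusted over 9 relations 2.25e-05). Without the weakest high array these were r = 0.96, 0.89, 0.94 and 0.85, and without the 2 arrays farthest from the median 0.95, 0.84, 0.93 and 0.78. Within the low group alone they were 0.97, 0.82, 0.94 and 0.76. Some of these miRNAs share a locus, and all shared each array's scaling.

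Other members of the list followed miR-451a less closely. The correlation with miR-25-3p was r = 0.73 (permutation p = 0.00117, adjusted 0.00176) and rho = 0.64 (permutation p = 0.00667, adjusted 0.0120). That with miR-3107-5p was r = 0.67 (permutation p = 0.00404, adjusted 0.00519) and rho = 0.51 (permutation p = 0.0368, adjusted 0.0473). Without the 2 arrays farthest from the median both were weaker, at r = 0.38 and 0.31. Within the low group alone they were 0.37 and 0.61.

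The co-variation was not limited to the red cell list. MiR-126-3p, of endothelium and platelets, went with miR-451a at r = 0.82 (permutation p = 0.00062, adjusted 0.00112) and rho = 0.60 (permutation p = 0.0125, adjusted 0.0188). Its r was 0.56 without the 2 arrays farthest from the median and 0.59 without the weakest high array. MiR-23a-3p, the reference of the haemolysis index, gave r = 0.79 (permutation p = 0.00492, adjusted 0.00554) and rho = 0.50 (permutation p = 0.0433, adjusted 0.0487). Its r was 0.37 without the 2 farthest arrays and 0.36 without the weakest high array. Within the low group alone miR-126-3p and miR-23a-3p gave r = 0.81 and 0.78, beside 0.76 for miR-15a-5p. MiR-494-3p gave r = -0.49 (permutation p = 0.0639, adjusted 0.0639) and rho = 0.04 (permutation p = 0.875, adjusted 0.875). Its r was 0.27 without the weakest high array.

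Against log2 absorbance over the 23 arrays, miR-451a gave r = 0.08 (permutation p = 0.722, adjusted 0.722), rho = 0.14 (permutation p = 0.507) and r = 0.01 without the 2 farthest arrays. MiR-16-5p gave r = 0.09 (permutation p = 0.676, adjusted 0.722), rho = 0.16 and r = 0.02 without them. MiR-144-3p gave r = 0.20 (permutation p = 0.369, adjusted 0.554), rho = 0.19 and r = 0.11. The 3 relations without the weakest high array were r = 0.22, 0.23 and 0.30. No relation of these 3 miRNAs with absorbance passed over the 23 arrays.

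The haemolysis index needs no scaling between arrays. The log2 signal of miR-451a minus that of miR-23a-3p ran from 4.22 to 6.80 in the high group, with a median of 5.53, and from 3.59 to 5.77 in the low group, with a median of 4.66. The 4.22 was that of the weakest high array, on which miR-23a-3p, at 31.6 intensity units, was not detected. Only the 2 highest high arrays lay above every low array, and the groups overlapped. On average it was 5.56 ± 0.76 (SD, n = 10) in high and 4.79 ± 0.76 (SD, n = 7) in low arrays, a difference of 0.76 or 1.70-fold (exact permutation p = 0.0607, adjusted 0.0810), which did not pass. On the scaled values this is the difference of miR-451a, -0.12, minus that of miR-23a-3p, -0.88. Without the weakest high array the index differed by 0.91 (exact permutation p = 0.0194, adjusted 0.0259), which is 0.44 for miR-451a minus -0.47 for miR-23a-3p. Leaving out the sixth low array gave 0.92 (exact permutation p = 0.029) and leaving out the seventh 0.56 (exact permutation p = 0.146).

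Over the 23 arrays the index went with log2 absorbance at r = 0.53 (permutation p = 0.00877, adjusted 0.0526) and rho = 0.37 (permutation p = 0.0861, adjusted 0.258). Without the 2 arrays farthest from the median r was 0.38, without the weakest high array 0.58, and within NeuT+ and NeuT- mice it was 0.72 and 0.53. Within the slides that held both groups the index was higher in the high group on 3 of 4, by 1.09, 0.29 and 0.95, and differed by -0.37 on the other.

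**Figure D3:**
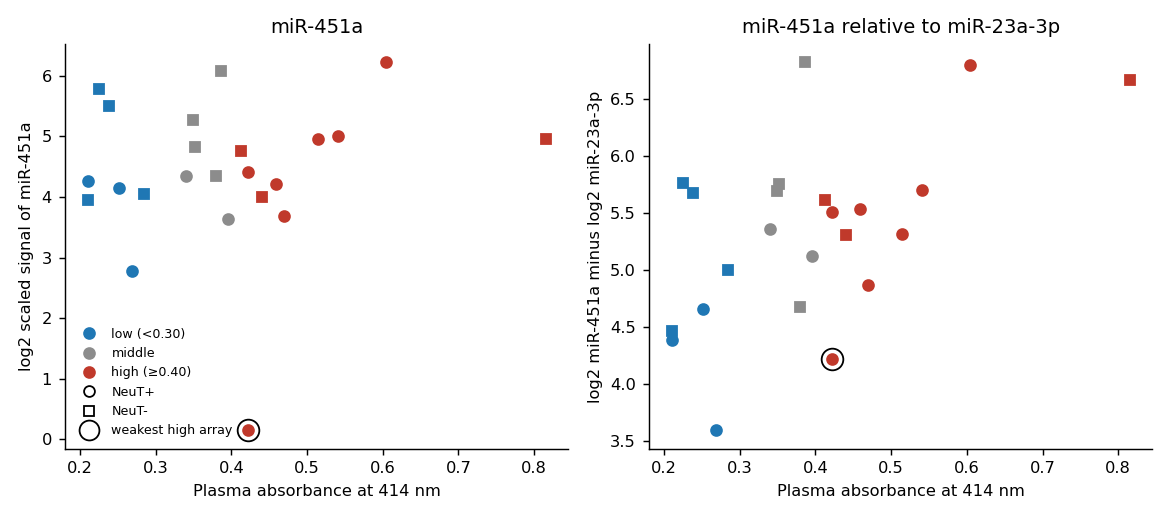
Log2 scaled signal of miR-451a (left, y axis) and log2 signal of miR-451a minus that of miR-23a-3p (right, y axis) against plasma absorbance at 414 nm (x axes) for the 23 batch 1 arrays, 1 point per mouse. For miR-451a r was 0.08 and for the index 0.53, and the index spans 3.59 to 5.77 within the low group alone.

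Across all miRNAs, none passed the test between the groups. Of 208 tested, 0 were called higher and 0 lower at an adjusted p under 0.05 (limma, smallest adjusted p = 0.211), which is 0% in each direction. At an unadjusted p under 0.05 there were 11 miRNAs, 2 higher (0.962% of those tested) and 9 lower (4.33%). For no miRNA did all high arrays lie above or below all low arrays. The miRNAs described next have the smallest p in each direction and did not pass, unless a setting is named in which they did.

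MiR-5097 had the smallest p. It ran from -4.88, the lower limit, to -2.14 in the high group, with a median of -2.997, and from -2.37 to -1.09 in the low group, with a median of -1.83. Of the 10 high arrays 8 lay below every low array, and the middle group ran from -2.75 to -1.59. The difference was -1.21 ± 0.31 (SE), a ratio of 0.433 (adjusted p = 0.211). Without the weakest high array it was -0.90 ± 0.20 (SE) and passed (adjusted p = 0.0485), the 1 call among 217 miRNAs tested (0.461% lower, 0% higher). Without that array 6 miRNAs higher (2.76%) and 4 lower (1.84%) had an unadjusted p under 0.05. Over its 42 alternative settings the adjusted p ran from 0.0193 to 0.996 and passed in 4. These were the weakest array left out, with or without genotype and age as terms, the normexp background, and array weights. The difference was below 0 in 41 of the 42, the exception being the deposited table, where it was 0.46 beside a median of 1.05 for all miRNAs. Without scaling it was -0.20, which rested on the weakest high array, where the probe read 2.10 intensity units. The other 9 high arrays ran from 225 to 494 intensity units and the 7 low arrays from 172 to 567, and the mean log2 signal of the 9 lay 0.090 above that of the low arrays. The sign of its scaled difference is therefore relative to the array's scale factor.

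MiR-5097 was also the miRNA with the smallest p when absorbance was taken as a number over the 23 arrays. The slope of miR-5097 was -0.94 ± 0.27 (SE) on the log2 scale per doubling of absorbance (limma, adjusted p = 0.334). With genotype and age as terms it passed at -0.95 ± 0.20 (SE, adjusted p = 0.0193), and without the weakest high array, a fit chosen after seeing the data, at -0.84 ± 0.18 (SE, adjusted p = 0.0163). Within slides it was lower in the high group on 4 of 4. Its longer probe on the array, with the first 3 bases in capitals, shows what strand it reads.
miR-5097 probe: TGGcgcctgaacag
The strand that this probe binds ends in CCA, the triplet that also closes mature tRNAs. All probes began with TGG for 20 of the 1247 miRNAs on the array (1.60%) and for 6 of the 208 tested (2.88%). Among those 6, chosen after the values were seen, miR-547-5p and miR-223-3p gave -1.20 and -0.79, miR-6366 gave -0.03, and miR-3106-5p and miR-212-3p were at 0.25 and 0.34.

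MiR-547-5p, encoded on the X chromosome, ran from -4.88 to -1.58 in the high group, with a median of -2.30, and from -2.26 to -0.50 in the low group, with a median of -1.32. Of the 10 high arrays 7 lay below every low array. The difference was -1.20 ± 0.38 (SE, adjusted p = 0.548), and -0.82 ± 0.22 (SE, adjusted p = 0.173) without the weakest high array. It passed under array weights (adjusted p = 0.0282), and its adjusted p over all 42 alternatives ran up to 1.00. MiR-192-5p, a miRNA of liver and gut epithelium, differed by -0.61 ± 0.23 (SE), and by -0.51 without the weakest high array. It lay at the lower limit on 5 of 10 high and 0 of 7 low arrays, so its high values are partly bounds. Detected on 6 of 10 high and 6 of 7 low arrays, it passed the filter on detection only through the low group.

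Platelet and endothelial miRNAs lay lower in the high group without passing. MiR-126-3p, encoded in an intron of Egfl7 and characteristic of endothelium and platelets, ran from -4.88 to -1.88 in the high group (median -2.80) and from -3.02 to -1.23 in the low group (median -2.00). The difference was -0.83 ± 0.35 (SE, adjusted p = 0.882), and -0.50 ± 0.25 (SE) without the weakest high array. MiR-23a-3p ran from -4.07 to -0.36 in the high group (median -1.14) and from -0.96 to 0.02 in the low group (median -0.51). Of the 10 high arrays 6 lay below every low array. The difference was -0.88 ± 0.38 (SE, adjusted p = 0.882), and -0.47 ± 0.21 (SE) without the weakest high array.

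Of the 15 names on the platelet and endothelium list, 12 were on the array and 7 were tested. Their median difference was -0.64, from -0.88 to -0.20, and 7 of 7 lay below 0, beside 61.5% of all tested miRNAs. Without the weakest high array the median was -0.30 and 7 of 7 lay below 0, beside 32.7%. No member passed in either case. With NeuT+ arrays alone 4 of 7 lay below 0, and with NeuT- arrays alone 7 of 7, beside 46.1% and 55.7% of all tested miRNAs. Arrays of 6 weeks alone gave 6 of 7 and arrays of 12 weeks alone 7 of 7, beside 41.4% and 35.2% of all tested miRNAs. In the deposited table, where the median of all miRNAs was 1.05, 0 of 7 lay below 0. Without scaling the list's median was 0.38, below the 0.83 of all tested miRNAs, and miR-126-3p and miR-23a-3p gave 0.19 and 0.051, so their sign is relative to that shift. MiR-23b-3p, a near copy of miR-23a-3p, gave -0.87, and miR-24-3p, which shares clusters with both, gave -0.64. Leaving out the weakest high array gave -0.45 and -0.30. These members share loci or sequence and are not independent of each other. Within the 4 slides that held both groups, each with 1 low array, miR-126-3p and miR-23a-3p were lower in the high group on 4 of 4. Their differences ran from -1.36 to -0.89 and from -1.81 to -0.49, and the slide with -1.81 held the weakest high array. MiR-21a-5p and miR-150-5p, not on this list, were also lower on 4 of 4. With slide as fixed terms, 76.4% of all tested miRNAs lay below 0.

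MiR-223-3p, the neutrophil and platelet miRNA, ran from -4.64 to -0.90 in the high and from -2.81 to -0.48 in the low group, with a difference of -0.79 ± 0.46 (SE, adjusted p = 0.882), and of -0.43 ± 0.40 (SE) without the weakest high array. The 3 tested members of the myeloid list had a median of -0.39, and of -0.03 without the weakest high array. MiR-150-5p, a lymphocyte miRNA and the 1 tested member of the lymphoid list, differed by -0.32 ± 0.30 (SE), and by -0.10 ± 0.29 (SE) without it. MiR-21a-5p, widely expressed and raised in many tumours, differed by -0.46 ± 0.37 (SE), and by -0.07 ± 0.23 (SE) without the weakest high array. MiR-122-5p, the main liver miRNA, was detected on 7 high and 5 low arrays and was not tested over the 17 arrays; without the weakest high array it was tested, at -0.098 ± 0.28 (SE). In cell-free plasma, fewer source cells and less miRNA from each cannot be told apart.

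Among miRNAs higher in the high group, miR-494-3p had the smallest p. It ran from 2.14 to 5.88 in the high group, with a median of 3.31, and from 2.27 to 3.32 in the low group, with a median of 2.63. Of the 10 high arrays 5 lay above every low array, and the highest was the weakest high array. The difference was 0.84 ± 0.39 (SE, adjusted p = 0.882), and 0.68 ± 0.30 (SE) without that array. MiR-6385 ran from -0.47 to 1.58 in the high group and from -0.43 to 0.00 in the low group, with 6 of 10 high arrays above every low array. Its difference was 0.52 ± 0.25 (SE, adjusted p = 0.882), and 0.49 without the weakest high array. Both miRNAs passed in the deposited table (adjusted p = 0.0356), in which the median of all miRNAs was 1.05, and in no other setting.

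MiR-542-5p, miR-6378 and miR-5122 differed by 0.47 ± 0.24, 0.52 ± 0.29 and 0.34 ± 0.21 (SE), and by 0.58, 0.40 and 0.34 without the weakest high array. MiR-542-5p was detected on 9 of 10 high and 4 of 7 low arrays, and miR-5122 on 9 and 3. Both passed the filter on detection only through the high group, the group in which they are named as higher. On the weakest high array miR-494-3p and miR-6378, at 5.88 and 2.37, were at their highest, while miR-451a and miR-23a-3p were at their lowest.

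**Figure D4:**
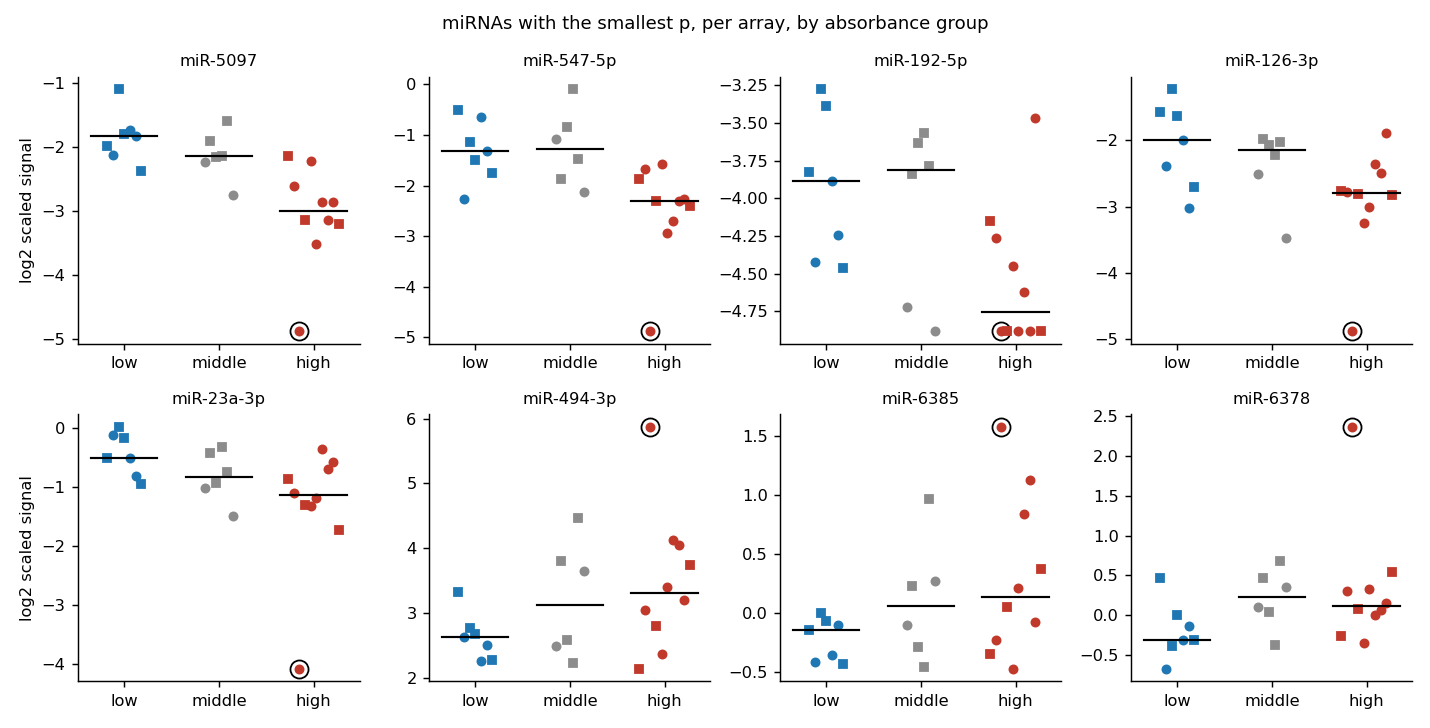
Log2 scaled signal (y axes) of the 5 miRNAs lower in the high group with the smallest p and of 3 higher ones, miR-494-3p, miR-6385 and miR-6378, on each array of the low, middle and high absorbance groups (x axes), 1 point per mouse, round for NeuT+ and square for NeuT-, with a line at the group median. MiR-542-5p, with a smaller p than miR-6378, is not drawn. The circled weakest high array is the lowest point for miR-5097, at -4.88, and the highest for miR-494-3p, at 5.88.

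**Figure D5:**
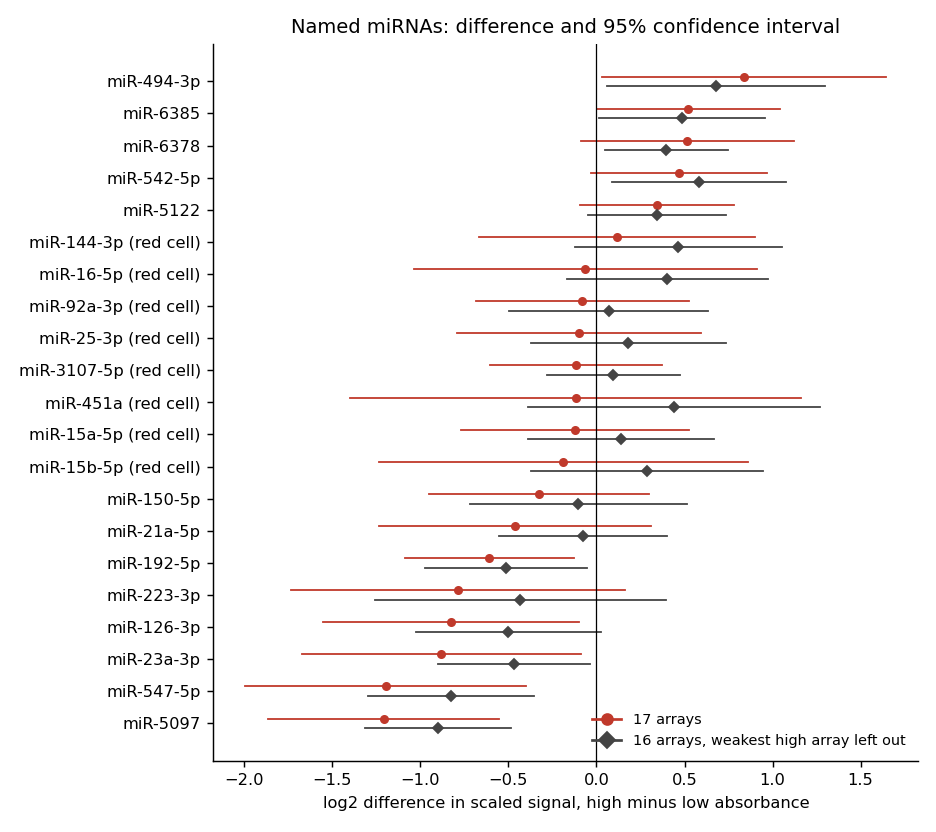
Log2 difference in scaled signal, high minus low absorbance (x axis), of the 21 named miRNAs (y axis) with 95% confidence intervals, over 17 arrays and over 16 without the weakest high array. The red cell miRNAs move from about 0 to small positive values, miR-451a from -0.12 to 0.44, while miR-5097 stays below 0, at -1.21 and -0.90.

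The remaining lists are given by their medians on the scaled values, which are relative to the array. The miR-17-92 cluster and its paralogues, which support proliferation of blood and tumour cells, had 9 tested members with a median of -0.12, and 0.18 without the weakest high array. The let-7 family had 8 tested members with a median of -0.16, and likewise 0.18 without it. The miR-30 and miR-29 families had 8 with a median of -0.25, and -0.05 without it. The 4 tested epithelial miRNAs, of the miR-200 family and miR-205-5p, lay between -0.25 and 0.01, and their median without the weakest high array was 0.10. The liver list had 2 tested members with a median of -0.33, and 3 with a median of -0.098 without it. The breast tumour list had 3 with a median of -0.31, and -0.07 without the weakest high array. MiR-1a-3p of muscle gave 0.01 and miR-134-5p of the Dlk1-Dio3 cluster 0.12, and without the weakest high array 0.24 and 0.25. No member of any list passed.

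The tests for a dependence on genotype or age called no miRNA. In the test of whether it differed between NeuT+ and NeuT- mice, 0 of 208 miRNAs passed (limma, smallest adjusted p = 0.998), with 3 at an unadjusted p under 0.05, which is 0% higher and 1.44% lower. Between 6 and 12 weeks of age, 0 of 217 passed (smallest adjusted p = 0.996), also with 3. With genotype and age as terms in the comparison of the groups, 0 of 208 passed, and the median of the red cell list was -0.03. Over the 23 arrays, with absorbance as a number, 0 of 211 passed (smallest adjusted p = 0.334). At an unadjusted p under 0.05 there were 4 with a positive slope (1.90%) and 12 with a negative one (5.69%). The slope of miR-451a was 0.21 ± 0.48 (SE) per doubling of absorbance, with a 95% confidence interval from -0.78 to 1.21.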

How the data were processed

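Groups were formed from the absorbance and batch labels; genotypes and ages were pooled. Members and miRNA lists were chosen with earlier results of these data known. Per the file headers, the authors used Feature Extraction 10.7.3.1 with spatial detrending (design annotation mm9) and deposited processed spot intensity values on a linear scale without scaling between arrays. The authors also deposited a table of log2 values per miRNA, used as an alternative; its column medians lay between 2.98 and 4.76, its centring and normalization are unknown here, and 13 columns of batch 2 arrays were not used.

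Spots flagged as outliers were left out, spots of a probe were averaged, and the brightest of the probes stood for a miRNA. Signals were expressed relative to the array's 75th percentile of the 97 miRNAs detected on all 17 arrays. A lower limit of 0.0339 of the percentile was set (4.13% of tested values) and log2 taken. The 208 miRNAs detected on at least 75% of the arrays of a group entered limma 3.58.1 (R 4.3.3, trend, robust; Benjamini-Hochberg adjusted p under 0.05). Single values per array were compared by two-sided exact permutation, relations by 100000 permutations. The fit was tested on simulated data.

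Named were up to 10 calls per direction or, where fewer than 5 passed, the 5 with the smallest p, plus every tested red cell list member and miR-23a-3p, miR-122-5p, miR-223-3p, miR-126-3p, miR-21a-5p and miR-150-5p where tested. The lists covered red cell, platelet and endothelium, myeloid, lymphoid, liver, epithelium, muscle, let-7, miR-17-92, miR-30 and miR-29, Dlk1-Dio3 and breast tumour miRNAs. Replicate numbers follow no label. Each array is a separate mouse, and their number limits the precision. No 2 of the 136 pairs of arrays were identical, with correlations from 0.67 to 0.99, and array scale factors spanned 9.32-fold.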

Additional observations from a re-analysis of the deposited data

Results flagged for a closer look

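In 75 checks of 25 values in 3 absorbance groups, 13 groups had a sample far from the others relative to the group's range, and chance gives about 1 in 20. Of these, 10 lay on high replicate 10, the NeuT+ plasma of 24 weeks with an absorbance of 0.422. It was the lowest of the high group for miR-451a at 0.15, with the nearest at 3.69, for miR-16-5p at -2.53, with the nearest at 0.26, for miR-23a-3p at -4.07 and for miR-21a-5p at -2.52. It was at the lower limit of -4.88 for miR-15b-5p, miR-5097, miR-547-5p and miR-126-3p. It was the highest of the high group for miR-494-3p at 5.88 and for miR-6378 at 2.37. Its log2 scaled signals therefore differed from those of the other high arrays in both directions.

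High replicate 7, a NeuT+ mouse of 12 weeks, was the highest of the high group for miR-192-5p at -3.47, where 5 of 10 arrays lay at the limit. Replicate 2 of the middle group, a mouse of 12 weeks, was the lowest of the 6 for miR-126-3p at -3.48, with the nearest at -2.50, and for miR-150-5p at -4.88, with the nearest at -3.89. The middle group did not enter the comparison of high and low absorbance.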

How the results depend on the processing

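Between the groups, 0 miRNAs were called higher or lower under every alternative except these. The normexp background, genotype and age as terms without the weakest high array, and leaving out that array each gave 1 lower (miR-5097), array weights gave 2 lower (miR-5097 and miR-547-5p), and the deposited table gave 2 higher (miR-494-3p and miR-6385). The cause was not tested. Over the 23 arrays, absorbance as a number gave 1 call, miR-5097, with genotype and age as terms and without the weakest high array, the latter chosen after seeing the data. Leaving out each array in turn gave 0 or 1 lower calls, a difference in log2 summed signal from 0.85 to 1.19, and an index difference from 0.56 to 0.92. The signal difference was highest without the weakest high array (exact permutation p = 0.00446, adjusted over the 4 values per array 0.00892), which had the lowest summed signal of its group. The signal difference was lowest without the second low array (exact permutation p = 0.0578) and similar at 0.87 without the seventh low array (exact permutation p = 0.0559). The index had an unadjusted exact permutation p under 0.05 without the first low (0.91, p = 0.0335) or sixth low array (0.92, p = 0.0290). The same held without the ninth high (0.84, p = 0.0477) or weakest high array (0.91, p = 0.0194). Of these fits, p was adjusted over the 4 values per array only for the last, at 0.0259. In the deposited table the index difference was -0.012. No paired analysis was possible because the replicate numbers follow no label and each array is a separate mouse.

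Signs that turned were of miRNAs that did not pass, most near 0, and the cause was not tested. Leaving out each array in turn gave miR-451a from -0.38 to 0.44, miR-144-3p from -0.061 to 0.46, miR-16-5p from -0.22 to 0.40, miR-15a-5p from -0.28 to 0.14, miR-15b-5p from -0.41 to 0.29, miR-3107-5p from -0.20 to 0.094, miR-92a-3p from -0.23 to 0.069 and miR-25-3p from -0.24 to 0.18. Genotype and age as terms gave miR-451a 0.074 and miR-16-5p 0.10, and without the weakest high array miR-451a 0.39, miR-16-5p 0.37, miR-15a-5p 0.077, miR-15b-5p 0.20, miR-3107-5p 0.11 and miR-25-3p 0.078. MiR-144-3p was -0.17 with slide, -0.11 with scan day and -0.30 with the scale factor as a term. Quantile normalization gave miR-16-5p 0.051, miR-15a-5p 0.0077, miR-3107-5p 0.0027 and miR-92a-3p 0.11. No scaling, which shifts all miRNAs, gave miR-451a 0.78, miR-16-5p 0.83, miR-15a-5p 0.77, miR-15b-5p 0.82, miR-3107-5p 0.78, miR-92a-3p 0.80, miR-25-3p 0.84, miR-192-5p 0.11, miR-126-3p 0.19, miR-23a-3p 0.051, miR-223-3p 0.20, miR-21a-5p 0.43 and miR-150-5p 0.67. The deposited table, with a like shift, gave miR-451a 0.68, miR-16-5p 0.99, miR-15a-5p 1.72, miR-15b-5p 1.76, miR-3107-5p 1.55, miR-92a-3p 0.75, miR-25-3p 1.39, miR-5097 0.46, miR-547-5p 0.71, miR-192-5p 0.58, miR-126-3p 0.92, miR-23a-3p 0.69, miR-223-3p 0.87, miR-21a-5p 0.45 and miR-150-5p 0.73. Normexp gave miR-16-5p 0.014, miR-542-5p -0.079 and miR-5122 -0.089, the summed gene signal miR-92a-3p 0.63 and miR-150-5p 0.21, and a doubled lower limit miR-92a-3p 0.043. Array weights gave miR-451a 0.23, miR-16-5p 0.19, miR-15a-5p 0.027, miR-15b-5p 0.19, miR-3107-5p 0.061, miR-92a-3p 0.0035 and miR-25-3p 0.14. NeuT+ arrays alone gave miR-451a 0.35 and miR-16-5p 0.18, and NeuT- arrays alone miR-16-5p 0.087, miR-15a-5p 0.023, miR-15b-5p 0.13, miR-3107-5p 0.19 and miR-25-3p 0.18. Arrays of 6 weeks alone gave miR-451a 0.64, miR-16-5p 0.51, miR-15a-5p 0.0087, miR-15b-5p 0.15, miR-3107-5p 0.29, miR-25-3p 0.32, miR-21a-5p 0.13 and miR-150-5p 0.12. Arrays of 12 weeks alone gave miR-451a 0.092, miR-16-5p 0.20, miR-15a-5p 0.12 and miR-15b-5p 0.17. Without the 3 arrays of 24 weeks, chosen after seeing the data as was the fit with terms without the weakest array, miR-451a was 0.47, miR-16-5p 0.40, miR-15a-5p 0.13, miR-15b-5p 0.25, miR-3107-5p 0.057, miR-92a-3p 0.042 and miR-25-3p 0.12.

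The 17 arrays, the wide spread of array signal and the absence of clear plasma limit what can be seen. For miR-451a the interval of the difference reached from -1.40 to 1.16, so a change of that size either way was not detectable. Values at the lower limit have no order.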
